A study of Homo sapiens with 12 samples.

Results

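The comparison set IGF2BP2 beside the METTL1-WDR4 complex, by the positions where each crosslinked to RNA in HepG2 cells, a human liver cancer line. The IGF2BP2 side had 2 PAR-CLIP libraries and the complex side 4, namely 2 for METTL1 and 2 for WDR4. Within a side, clusters on the same strand that overlapped by at least 1 nt were merged, and a merged site was kept when at least 2 libraries of that side held it. This left 3174 of 8768 merged sites for IGF2BP2 and 4561 of 26058 for the complex. The sites of both sides formed 5948 separate loci, and 1670 of the 5948 held sites of both sides. Over the 12 libraries of the series there were 45174 merged loci before any library rule and 17785 in 2 or more libraries. A site is called shared when it overlapped a site of the other side by at least 1 nt, and alone otherwise.

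The study asked which proteins read internal m7G in mRNA, and the series mapped IGF2BP1, IGF2BP2, IGF2BP3, METTL1 and WDR4. All 12 libraries came from HepG2 cells of wildtype genotype that were fed 4-thiouridine, crosslinked with ultraviolet light and digested with RNase T1 before precipitation with an antibody to the protein. No other treatment is given, each group is the same cell line, and no input or mock precipitation was among the libraries, so no background level was measured. The data are intervals of called clusters without read counts, so neither the depth of a cluster nor the strength of binding was known, and the absence of a cluster in a library set no limit on binding.

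IGF2BP2 is a cytoplasmic protein with RNA recognition motifs and KH domains that binds many mRNAs, for the most part in their 3' UTRs, and affects their stability and translation. METTL1 is the methyltransferase and WDR4 the scaffold of the complex that places m7G in the variable loop of a set of tRNAs, and m7G inside mRNAs has been attributed to the same complex. The mRNA of IGF2, a fetal growth factor, gave the IGF2BP family its name.

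The sites below are examples of what was bound. For each gene shown, the single-copy site found in the most libraries was taken, cut to at most 30 nt around the centre where the site was longer. They are written 5′ to 3′ as DNA from the hg38 sequence on the strand of the transcript. Capitals mark CATA, CATC or CATT, the DNA spelling of the short motif with which the IGF2BP family is usually described, and a site without capitals held none in the printed stretch. Sites of ATXN1L, GNPNAT1, NECTIN1, NR6A1, NHERF1, STK35 and MDM2, and complex-alone sites of SRF, MEX3A, MRI1 and BOD1, were taken in the same way. They are not printed, and none held the motif in that stretch, so the printed sites overstate how often it occurred. The first 3 printed sites were found in all 6 libraries, the next in both IGF2BP2 libraries, and the last in both IGF2BP2 libraries, in a gene that the complex bound elsewhere.
PLBD2, shared, 3' UTR, chr12:113390334-113390363 (+): CATCCATCcaatcaccCATCcaacCATCaa
APOB, shared, coding sequence, chr2:21006754-21006783 (-): ttgttgctCATCtcctttcttCATCttcat
IGF2, shared, 5' UTR, chr11:2139008-2139029 (-): cctcgggccgctcccctttccg
GNE, IGF2BP2 alone, 3' UTR, chr9:36216304-36216333 (-): cacaCATCcttcctcctctaaccccaaact
EIF4G2, bound by both at different sites, coding sequence, chr11:10800179-10800205 (-): caccCATTttcctctcttcctactttg

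The 6 libraries differed in size and in where their clusters lay. IGF2BP2 had 4581 clusters in replicate 1 and 7469 in replicate 2. METTL1 had 6615 and 8648, and WDR4 had 9765 and 9205. Of 14 genes that mark liver cells, 10 had a cluster in at least 1 of the 6 libraries, and of 10 markers of other cell types, 0 had. APOB, SERPINA1, FGB and HNF4A had clusters in all 6 libraries, and APOA1 and TF in 1 library each. The liver genes APOA2, APOE, APOH and TTR had none. The share of all genes with a cluster was not counted, so these counts have no background beside them.

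The 3' UTR was the largest class of IGF2BP2 clusters, and introns were the largest class of complex clusters. The 3' UTR held 43.0% and 39.4% of the clusters in IGF2BP2 replicates 1 and 2. It held 20% and 19.5% in the METTL1 libraries and 19.5% and 17.4% in the WDR4 libraries. The groups did not overlap, and the difference in means was 22.1 percentage points, from 41.2% ± 2.51 (SD, n = 2) for IGF2BP2 to 19.1% ± 1.16 (SD, n = 4) for the complex. Introns held 20.6% and 24.4% of the IGF2BP2 clusters, against 39.0% to 44.2% in the 4 libraries of the complex, a difference in means of -18.9 percentage points. Intergenic clusters made up 12.2% and 14.3% in IGF2BP2 and 17.0% to 22.4% in the complex. Coding sequence did not separate the groups, with 7.42% and 7.98% for IGF2BP2, 7.36% and 7.81% for METTL1 and 5.56% and 3.67% for WDR4. For the 5' UTR, METTL1 had 3.28% and 3.31%, while the WDR4 libraries at 1.92% and 1.62% lay close to IGF2BP2 at 1.72% and 1.57%.

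**Figure D1:**
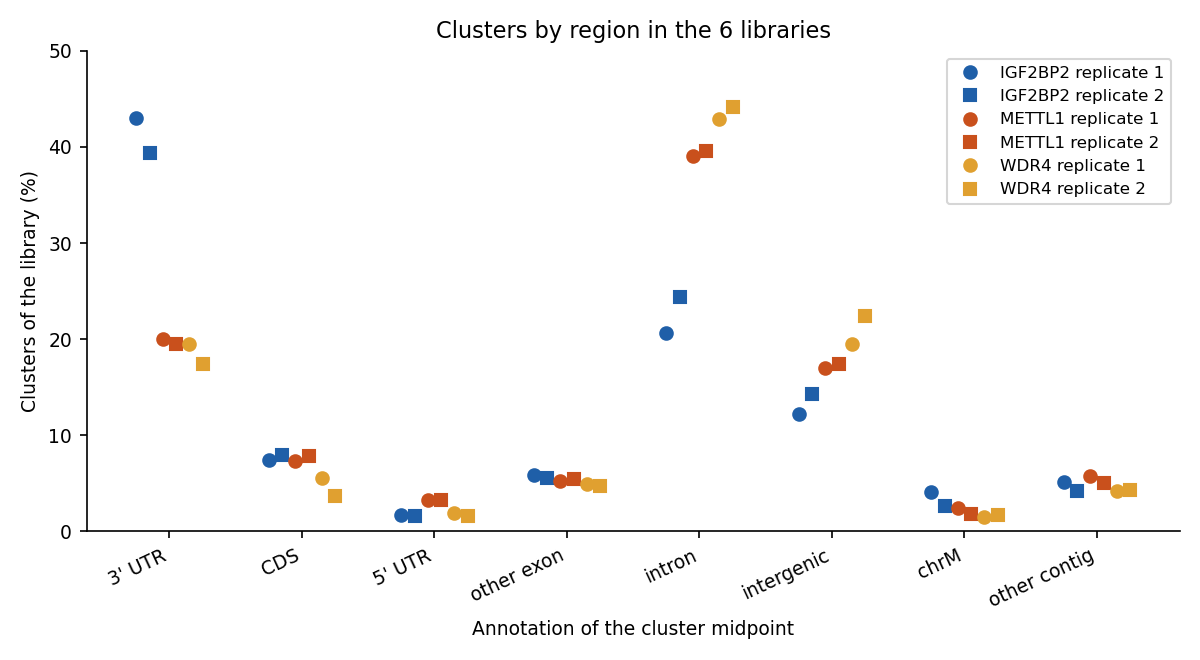
Each point is the percentage of a library's clusters (y axis) whose midpoint lay in the region on the x axis, coloured by protein, with circles for replicate 1 and squares for replicate 2. In the 3' UTR both IGF2BP2 points, at 43.0% and 39.4%, lie above the 4 points of the complex, and in introns they lie below them.

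With 2 libraries against 4, a two-sided exact permutation test over 15 assignments cannot reach 0.05. The smallest p it allows, 0.0667, was met for 3' UTR, intron, intergenic and mitochondrial shares, for the median cluster width and for CATA, CATC or CATT, and became 0.167 after Benjamini-Hochberg adjustment over 15 measures. Among 5' UTR, coding and 3' UTR clusters alone the coding difference changed from 1.60 to -6.33 percentage points (exact permutation p = 0.200), so its direction depended on whether introns and intergenic sequence were in the denominator. The 3' UTR difference was 12 percentage points with that denominator (exact permutation p = 0.133), in place of 22.1. In 3' UTR clusters alone the difference in median width was 0.5 nt (exact permutation p = 0.933), in place of 2.75 nt.

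Of the IGF2BP2 sites, 1772 (55.8%, Wilson 95% interval 54.1% to 57.5%) were shared with the complex. Of the complex sites, 1685 (36.9%, 35.6% to 38.4%) were shared with IGF2BP2. These shares are what the site rule counts and carry no test. The rule asked for 2 of 2 libraries on the IGF2BP2 side and for 2 of 4 on the other, and the shares moved with it. They were 36.0% of IGF2BP2 sites and 56.6% of complex sites with both METTL1 libraries as the complex, and 39.2% and 46.3% with both WDR4 libraries. With complex sites in any 1 library they were 76.2% and 9.02%, and with the clusters of IGF2BP2 replicate 2 alone as the IGF2BP2 side they were 32.4% and 49.3%.

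Sites found in more libraries of the complex were shared more often. Of 2530 complex sites in exactly 2 libraries, 483 (19.1%) were shared. The share was 394 of 981 (40.2%) for sites in 3 libraries and 808 of 1050 (77%) for sites in all 4. Sites held by METTL1 alone or by WDR4 alone were at the low end, with 89 of 424 (21.0%) and 120 of 907 (13.2%) shared, beside 274 of 1199 (22.9%) for sites in exactly 2 libraries, 1 of each protein. The greater part of the complex sites, 3230 or 70.8%, had clusters of both METTL1 and WDR4. With 2 libraries per protein, any site in 3 or 4 libraries holds both by construction. Of the sites in exactly 2 libraries, 1199 of 2530 held both.

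Many sites called alone had been met by the other side in a single library. Of the 1402 IGF2BP2-alone sites, 643 (45.9%) overlapped a cluster of 1 complex library and 755 (53.9%) overlapped none. Of the 2876 complex-alone sites, 737 (25.6%) overlapped a cluster of 1 IGF2BP2 library and 2134 (74.2%) overlapped none. The word alone therefore stands for the rule of 2 libraries, not for an empty position on the other side.

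Of the 6615 clusters of METTL1 replicate 1, 30.5% overlapped a cluster of METTL1 replicate 2. Clusters of the WDR4 libraries overlapped 28.5% and 25.8% of them, and those of the IGF2BP2 libraries 24.0% and 29.8%. Overlap of this METTL1 library with the larger IGF2BP2 library was thus close to its overlap with its own replicate, in libraries of unequal size. For WDR4 the overlap between replicates was higher, with 26.8% of replicate 1 and 28.6% of replicate 2 met by the other, against 19.6% and 24.5% of replicate 1 and 19% and 22.7% of replicate 2 met by the IGF2BP2 libraries. The IGF2BP2 replicates overlapped each other more, with 70.7% of replicate 1 found in replicate 2.

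Where clusters of the 2 sides overlapped, they lay on top of each other. In the 8 pairs of an IGF2BP2 with a complex library, 27.5% to 31.5% of overlapping clusters had the same start and the same end. The median distance between centres was 1.5 nt to 2.5 nt and the median signed distance 0 nt. Clusters with both ends in common have a signed distance of 0, so this median can hardly show a shift of a side. Within the complex, 28.1% to 29.9% of overlapping METTL1 and WDR4 clusters had both ends in common, with a median distance of 2.00 nt. The IGF2BP2 replicates shared both ends in 41.2% of overlapping clusters. RNase T1 cuts after G, so the ends of clusters follow the nearest G in any library, and the part of this in the common ends was not tested.

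Sharing varied by region. In 3' UTRs, 741 of 1466 IGF2BP2 sites (50.5%, 48.0% to 53.1%) and 744 of 1272 complex sites (58.5%, 55.8% to 61.2%) were shared. In introns, 314 of 578 IGF2BP2 sites (54.3%) were shared but 305 of 1388 complex sites (22%, 19.9% to 24.2%). Complex sites of the 5' UTR were shared in 33 of 120 cases (27.5%) and those in coding sequence in 123 of 297 (41.4%). The shares for introns and 3' UTRs on the complex side were 16.1% and 59.4% among single-copy sites. In these the central 20 nt of every cluster occurred a single time in the genome.

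**Figure D2:**
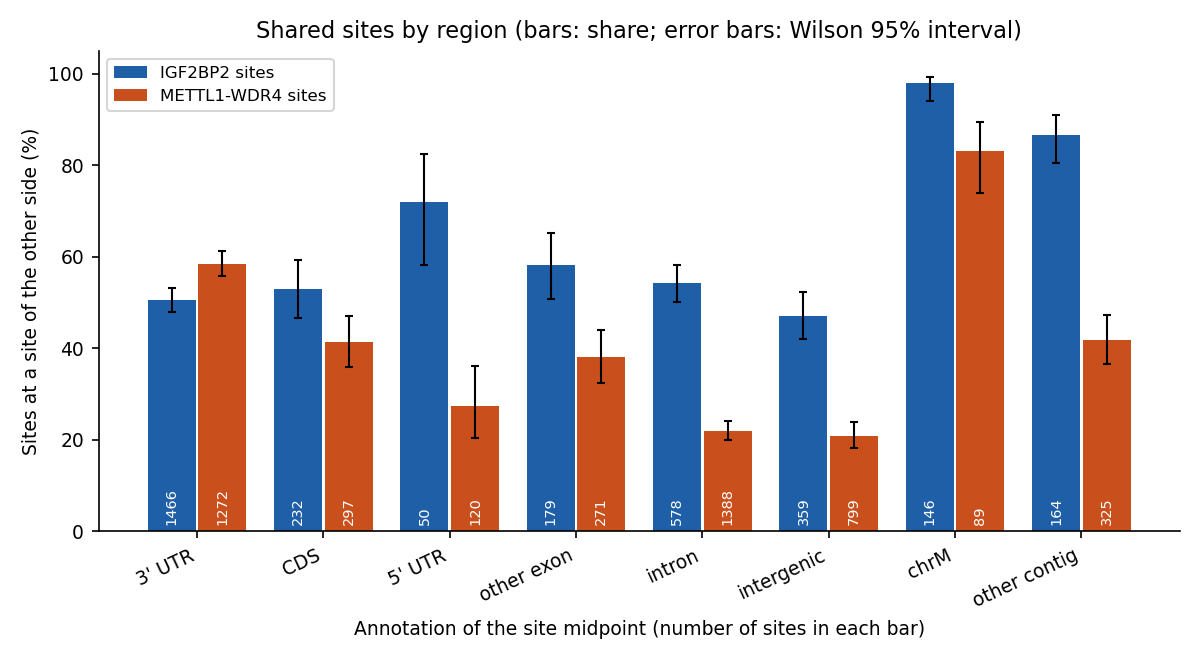
Bars give the percentage of sites (y axis) that overlapped a site of the other side, by region (x axis), for IGF2BP2 in blue and the complex in orange, with the number of sites in each bar and Wilson 95% intervals as error bars. On the complex side the 3' UTR bar stands at 58.5% and the intron bar at 22%, while the IGF2BP2 bars of these regions are 50.5% and 54.3%.

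The highest shares were on the mitochondrial chromosome, with 143 of 146 IGF2BP2 sites (97.9%) and 74 of 89 complex sites (83.1%). Overlapping clusters were chained into sites, and over all regions the widest shared complex site was 2407 nt, against 586 nt for IGF2BP2. Dense clusters can join in this way into a few wide complex sites, and the part of this in the mitochondrial shares was not tested. The mitochondrial genome is transcribed as long precursors from both strands. The contigs outside the numbered chromosomes held 142 shared IGF2BP2 sites out of 164 (86.6%), of which 63 and 57 lay on 2 contigs, chr22_KI270733v1_random and chrUn_GL000220v1. Of the complex sites on contigs outside the numbered chromosomes, 136 of 325 (41.8%) were shared. A further 40 shared IGF2BP2 sites lay in nuclear pseudogenes of mitochondrial genes, against 3 of the IGF2BP2-alone sites. On the complex side these pseudogenes held 39 of 1685 shared sites and 36 of 2876 complex-alone sites. Fewer shared than alone IGF2BP2 sites had a single-copy centre in every cluster of the site, 41.4% and 55.5%. A wider site can hold more clusters, and the part of this in the contrast was not tested. The authors' mapping kept reads with several genomic matches. Leaving out these contigs and the mitochondrial chromosome gave 51.9% of IGF2BP2 sites shared, and single-copy clusters gave 47.0%.

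IGF2BP2-alone sites held CATA, CATC or CATT more often than complex-alone sites. The motif, read on the strand of the cluster, was in 54.3% of IGF2BP2-alone sites, 48.4% of shared IGF2BP2 sites and 29.7% of complex-alone sites. Of all clusters, it was in 45.0% and 42.9% in the IGF2BP2 libraries, 29.6% and 31.5% in the METTL1 libraries, and 33.5% and 33.6% in the WDR4 libraries. The libraries did not overlap in this measure, and the difference in means was 11.9 percentage points (exact permutation p = 0.0667, adjusted p = 0.167). In 3' UTR clusters alone the difference was 6.54 percentage points (exact permutation p = 0.0667). Within 3' UTR sites the shares were 50.5% alone and 51.8% shared for IGF2BP2, and 33.9% for complex-alone sites. The median widths of these 3' UTR sites were 42 nt, 50 nt and 43 nt in the same order, so the shared sites were wider and the alone sites of the 2 sides of similar width.

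AAGGT or GAGGT, letters of the tRNA stretch around the m7G position, was sought on the cluster strand in sites widened by 10 nt on both sides. It was found in 10.3% of shared IGF2BP2 sites, 6.85% of IGF2BP2-alone and 7.44% of complex-alone sites. GGACT, the core of the motif at which m6A is placed, was in 5.42%, 4.42% and 3.79%. Shared sites were wider, with a median of 52 nt against 44 nt for IGF2BP2-alone and 42 nt for complex-alone sites, and the part of width in these motif shares was not tested. The base T, at which 4-thiouridine crosslinks, made up 27.6%, 28.0% and 30.5% of the bases of these sites. Along the 3' UTR, counted as a fraction of its length from the stop codon, the median position was 0.443 for IGF2BP2-alone, 0.398 for shared IGF2BP2 and 0.408 for complex-alone sites. The library medians for this position differed by 0.00698 between the sides (exact permutation p = 0.533).

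Sites in exons placed 1641 protein-coding genes in 4 classes. IGF2BP2 alone had 466 genes (28.4%), the complex alone 471 (28.7%), both at different sites 65 (3.96%), and both at the same site 639 (38.9%). A gene bound by both sides thus mostly carried a shared site. Genes with IGF2BP2 alone mostly had a single site, 414 of 466, as did those with the complex alone, 423 of 471, while genes of the same-site class had a median of 3 sites over both sides, of which the class itself requires 2. Canonical 3' UTRs had a median length of 3079 nt in IGF2BP2-alone genes, 1386 nt in complex-alone genes and 2501 nt in same-site genes, against 1029 nt over all 19606 annotated genes with a 3' UTR. RNA levels were not used here, and the part of transcript length in these classes was not tested. Of the 466 IGF2BP2-alone genes, 139 had no exonic cluster of any complex library, and of the 471 complex-alone genes, 228 had none of IGF2BP2. Without WDR4 replicate 1 the complex-alone class fell to 269 genes, without WDR4 replicate 2 to 308, without METTL1 replicate 2 to 306 and without METTL1 replicate 1 to 331. The different-site class had 41 genes without WDR4 replicate 2.

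IGF2, the growth factor mRNA, had the most sites of the 639 same-site genes. Its exons held 34 and 36 clusters in the IGF2BP2 libraries, 33 and 37 in the METTL1 libraries and 37 and 32 in the WDR4 libraries. The 6 libraries covered the same narrow range, and neither side was higher. Of 33 IGF2BP2 sites 31 met a complex site, of which there were 32. In its 3' UTR of 3873 nt, 21 of 22 IGF2BP2 sites were shared, and the exception lay 1912 nt to 1952 nt after the last coding base. Of the 24 complex sites there, 20 were in all 4 libraries. IGF2BP2 sites covered 37.7% of this 3' UTR and complex sites 37.0%, and 91.4% of the bases covered by IGF2BP2 sites were covered by complex sites. Both sides left the stretch from 871 nt to 1686 nt without a site, and clusters of all 6 libraries overlapped over 946 nt.

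**Figure D3:**
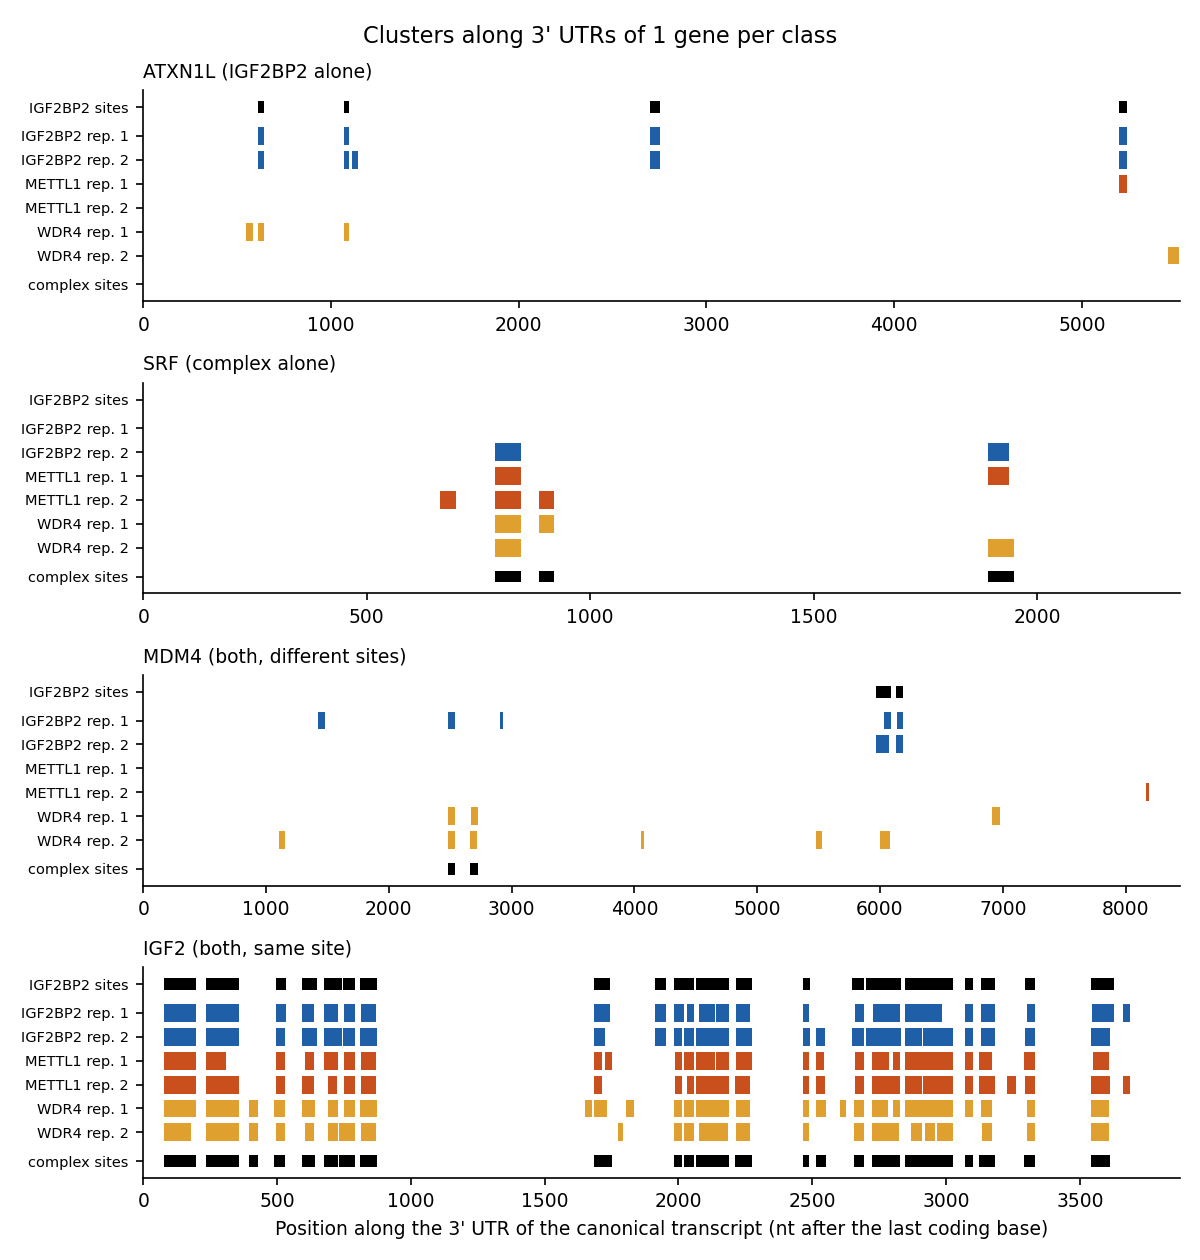
Coloured boxes are clusters of each library and black boxes the sites of each side, along the canonical 3' UTR (x axis, nt after the last coding base) of the gene with the most 3' UTR sites among the named genes of each class. In IGF2 the rows of the 6 libraries repeat each other, whereas in ATXN1L, SRF and MDM4 the sites of a side face at most single clusters on the other side.

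PLBD2, a lysosomal phospholipase-like protein, was next. It had 14 and 15 clusters in the IGF2BP2 libraries, 8 and 11 in METTL1 and 14 and 9 in WDR4. Of its 12 IGF2BP2 sites, all in the 3' UTR, 10 were shared, among them the site printed above with its run of CATC repeats. APOB, the main protein of very-low-density lipoprotein, had 13 and 20 clusters for IGF2BP2, 8 and 14 for METTL1 and 15 and 8 for WDR4, in ranges that overlapped. All 12 of its IGF2BP2 sites lay in coding sequence and 9 were shared. MDM2, an E3 ubiquitin ligase, had 11 and 12 clusters for IGF2BP2, 7 and 9 for METTL1, and 6 and 10 for WDR4. The IGF2BP2 libraries were above the other 4, in a gene where all 10 IGF2BP2 sites lay in the 3' UTR and 8 were shared. The mitochondrial mRNAs MT-ND1 and MT-ND2, which encode subunits of respiratory complex I, followed with 8 shared IGF2BP2 sites each, beside 3 complex sites each. Their clusters numbered 9 and 8 for MT-ND1 and 8 and 9 for MT-ND2 in the IGF2BP2 libraries, and between 5 and 8 in the libraries of the complex.

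The IGF2BP2-alone genes with the most sites were bound in their 3' UTRs. ATXN1L, a transcriptional regulator related to ataxin-1, had 4 and 7 clusters in the IGF2BP2 libraries, 1 and 0 in METTL1 and 3 and 1 in WDR4. Both IGF2BP2 libraries were above the other 4. Its 4 sites began 614, 1071, 2700 and 5196 nt after the last coding base, and 3 of the 4 met a cluster of some complex library. GNPNAT1, an enzyme of UDP-N-acetylglucosamine synthesis, had 5 and 6 clusters for IGF2BP2 against 0, 0, 3 and 1 for METTL1 replicates 1 and 2 and WDR4 replicates 1 and 2. GNE, which begins sialic acid synthesis, had 3 in each IGF2BP2 library and in the complex a single cluster, in WDR4 replicate 2. The adhesion molecule NECTIN1 had 3 and 3 for IGF2BP2, 2 and 1 for METTL1 and 0 for WDR4. NR6A1, an orphan nuclear receptor, had 3 and 3 for IGF2BP2 and 1 cluster in METTL1 replicate 2. POMK, a kinase that acts on the sugar chain of dystroglycan, had 3 and 7 for IGF2BP2 and 2 clusters in WDR4 replicate 1. In all 6 genes both IGF2BP2 libraries were above every library of the complex, which the choice of genes fixes in part, and 8 genes were tied at 3 sites.

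In complex-alone genes the libraries of the complex stood less far apart from IGF2BP2. MEX3A, an RNA-binding ubiquitin ligase with KH domains, had 5 complex sites, 3 of them in the 5' UTR. Its clusters numbered 0 and 4 in METTL1, 5 and 6 in WDR4, and 2 in each IGF2BP2 library. METTL1 replicate 1 was thus below IGF2BP2. ASPH, an aspartate hydroxylase of the endoplasmic reticulum, had 2 clusters in each of the 4 complex libraries and 1 in each of IGF2BP2. MRI1, an enzyme of methionine salvage, had 2 and 0 in METTL1, 3 and 3 in WDR4 and 1 and 2 in IGF2BP2, so the groups overlapped. SRF, the serum response transcription factor, had 2 and 3 in METTL1, 3 and 2 in WDR4 and 0 and 2 in IGF2BP2. Its 3 sites began 787, 886 and 1891 nt after the last coding base, the first was in all 4 complex libraries, and 2 of the 3 met a cluster of IGF2BP2 replicate 2. ALB, the plasma protein albumin, had 0 and 1 in METTL1, 2 and 4 in WDR4 and 1 and 0 in IGF2BP2. BOD1, which acts in chromosome alignment, had 0, 2, 2 and 1 in the complex and 1 and 0 in IGF2BP2, with both sites in coding sequence. The last place among the 6 was shared by 44 genes with 2 sites.

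**Figure D4:**
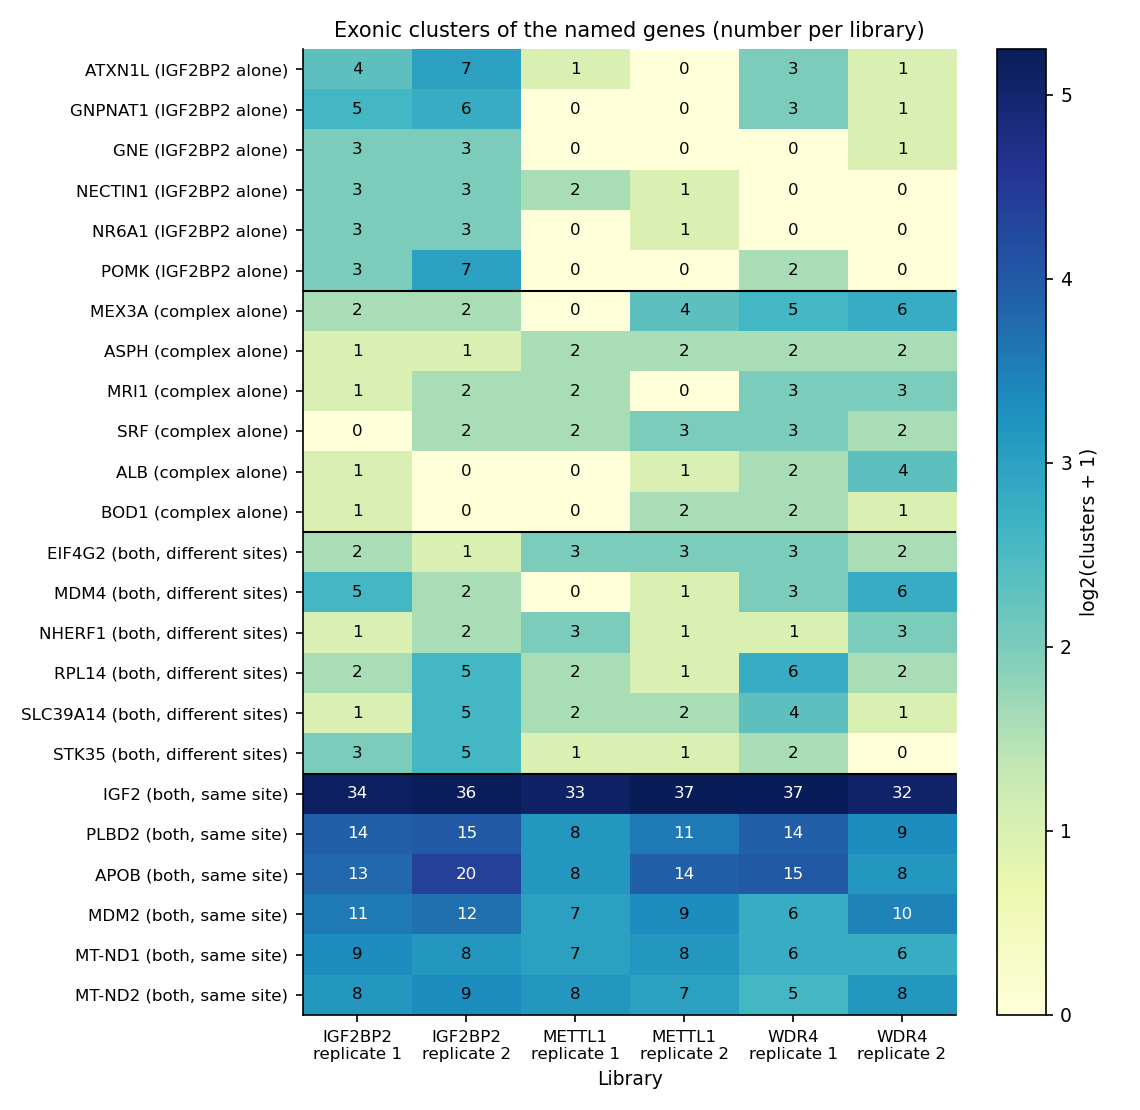
Numbers and colours give the exonic clusters of each named gene (rows, 6 per class, class in brackets) in each of the 6 libraries (columns), with colour on a log2(clusters + 1) scale. IGF2 has 32 to 37 clusters in all 6 libraries, and the genes of the first 3 classes have at most 7 in any library.

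Genes bound by both at different sites were few. EIF4G2, a translation initiation factor, had 1 IGF2BP2 site in coding sequence and 4 complex sites, of which 2 lay in the 5' UTR. Its libraries held 2 and 1 clusters for IGF2BP2 and 3, 3, 3 and 2 for the complex. MDM4, a relative of MDM2, had 5 and 2 clusters for IGF2BP2, 0 and 1 for METTL1 and 3 and 6 for WDR4, so its complex sites came from WDR4. In its 3' UTR of 8441 nt the complex sites began at 2485 and 2662 nt and the IGF2BP2 sites at 5967 and 6129 nt. On each side 1 of these 2 sites met a single cluster of the other side. NHERF1, a PDZ scaffold of the cell membrane, had 1 IGF2BP2 site in the 3' UTR and 3 complex sites in the 5' UTR. STK35, a kinase, had 3 and 1, all in the 3' UTR. RPL14, a protein of the large ribosomal subunit, had 1 and 3, and SLC39A14, a metal ion transporter, also 1 and 3.

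Where a 3' UTR held an alone site of a side and any site of the other, gaps were from under 50 nt to over 500 nt. For 271 of 725 IGF2BP2-alone sites the 3' UTR also held a complex site, at a median gap of 593 nt, with 30 (11.1%) within 50 nt and 144 (53.1%) over 500 nt away. For 211 of 528 complex-alone sites the nearest IGF2BP2 site lay at a median of 341 nt, with 29 (13.7%) within 50 nt and 87 (41.2%) over 500 nt away.

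Most groups of genes with known roles were spread over several classes. Against 38.9% of all 1641 genes in the same-site class, 8 of 12 bound genes of chaperones and protein folding (66.7%) were there, among them the endoplasmic reticulum chaperones CALR, CANX, HYOU1 and PDIA3, and 0 of the 12 had IGF2BP2 alone. The other 4, CCT5, DNAJA2, HSPH1 and P4HB, had the complex alone, with 1 site each. Of 17 bound genes of cholesterol and fatty acid metabolism, 8 (47.1%) were in the same-site class. They included SCD, the stearoyl-CoA desaturase, with 6 IGF2BP2 and 8 complex sites. FDFT1, which makes squalene, had 1 IGF2BP2 site in coding sequence and no complex site. DHCR7, CYP51A1 and MVK, enzymes of cholesterol synthesis, and the cholesterol transporters ABCA1 and NPC1 had the complex alone.

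Of 13 bound genes on the list of fetal genes under let-7 control, 7 (53.8%) were in the same-site class. HMGA1, HMGA2, IGF2, CDK6, NRAS, TRIM71 and IGF2BP1 made up these 7. IGF2BP1 mRNA had 5 IGF2BP2 and 6 complex sites, all in the 3' UTR. IGF2BP2 mRNA itself had 2 sites of the complex in its 3' UTR and no reproducible site of IGF2BP2. Its exons did hold 1 cluster in each IGF2BP2 library, beside 0 and 1 in METTL1 and 3 and 2 in WDR4. Of 10 bound genes of insulin and IGF signalling, 5 (50.0%) were in the same-site class: AKT2, a kinase, EIF4EBP2, which represses translation, GRB2, an adaptor, NRAS, a GTPase, and IGF2. The receptor IGF2R and the kinase subunit PIK3R1 had the complex alone.

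Translation factors and cell cycle regulators had same-site counts within 2 genes of the share of all genes. For translation factors the count was 4 of 14 (28.6%), and 6 had the complex alone, a class that held 28.7% of all genes, namely EEF1A1, EEF1D, EIF1, EIF3F, EIF4G1 and EIF5A. For cell cycle regulators it was 4 of 12 (33.3%), also with 6 in the complex-alone class. These were cyclin D1 (CCND1), CDK4, the inhibitors CDKN1A and CDKN1B, E2F7 and PLK1. The class does not mean that IGF2BP2 clusters were absent. IGF2BP2 replicates 1 and 2 held 1 and 2 exonic clusters in CCND1, 1 and 4 in CDKN1A, and 1 and 1 in EEF1A1. Neither held any in CDKN1B or E2F7. Of 12 bound genes of RNA decay, 6 (50.0%) were in the same-site class, among them AGO2, the small-RNA guided nuclease, DDX6, a helicase of P-bodies, and TNRC6B, a scaffold of silencing. For 10 bound genes of the m6A and m7G machinery the count was 4 (40.0%), with the m6A erasers ALKBH5 and FTO bound at a common 3' UTR site. Of 12 bound plasma protein genes 5 (41.7%) were there, including APOB, FN1, which encodes fibronectin, and SERPINA1, which encodes antitrypsin. All 13 mitochondrial mRNAs were bound, 12 (92.3%) at a common site, with the limit on chained sites given above. The lists are small, and a difference of a few genes moves these shares by many points.

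The complex had 18 sites in tRNA genes, and IGF2BP2 had 0. Its best-known substrates are a set of tRNAs, and whether the tRNAs found here belong to that set was not tested. None of the 18 overlapped an IGF2BP2 cluster. Clusters in tRNA genes numbered 0 of 4581 and 1 of 7469 in the IGF2BP2 libraries, 22 of 6615 and 33 of 8648 in METTL1, and 12 of 9765 and 10 of 9205 in WDR4. As shares these were 0 and 0.0134% for IGF2BP2, 0.333% and 0.382% for METTL1, and 0.123% and 0.109% for WDR4. For 0 of 4581 clusters the Wilson interval reaches 0.0838%. The groups did not overlap, with an exact permutation p of 0.133 (adjusted p = 0.222). Outside the comparison, IGF2BP1 had 2 and 1 such clusters and IGF2BP3 had 0 and 0, but the IGF2BP3 libraries with the bio2 label had 15 and 20, or 0.232% and 0.333%, above both WDR4 libraries and at or below the METTL1 libraries.

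Of the 18 tRNA sites, 10 had clusters of both METTL1 and WDR4, 6 of METTL1 alone and 2 of WDR4 alone. They lay in 17 tRNA genes, 6 of the sites in genes for leucine tRNA. The sites below were in all 4 complex libraries, or, for the leucine tRNA, stand for a stretch that was the same at 4 leucine sites. No motif is marked, since AAGGT or GAGGT was near 2 of the 18 sites and near none of these. A tRNA gene family has many near-identical copies, and 9 of the 18 sites were single-copy, so the gene of origin is uncertain for the others.
TRA-CGC3-1, alanine tRNA, chr2:156400823-156400846 (+): caatccccggcatctccaaatcag
TRY-GTA2-1, tyrosine tRNA, chr2:27050853-27050886 (+): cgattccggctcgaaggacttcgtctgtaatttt
TRL-AAG2-4, leucine tRNA, chr16:22297184-22297205 (+): tctcttcgggggcgtgggttcg

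The IGF2BP1 and IGF2BP3 libraries, which the site rule did not use, separated the classes of sites. IGF2BP1 replicates 1 and 2 had a cluster at 89.5% and 87.8% of the IGF2BP2-alone sites and at 92.9% and 93.5% of the shared IGF2BP2 sites, but at 32.5% and 33.2% of the complex-alone sites. For IGF2BP3 the values were 60.3% and 63.9% of IGF2BP2-alone sites, 72.3% and 76.3% of shared sites, and 11.5% and 13.2% of complex-alone sites. In the IGF2BP3 libraries with the bio2 label they were 24.0% and 22.9%, 36.4% and 35.7%, and 12% and 11.2%. The order was the same in all 6 libraries, with shared sites highest and complex-alone sites lowest. Shared IGF2BP2 sites exceeded IGF2BP2-alone sites by 9.80 percentage points on average (SD 4.12, 3.43 to 12.8 over the 6 libraries). The shared sites of the complex, which were met at 35.6% to 93.9%, exceeded complex-alone sites by 49.2 (SD 19.4, 24.1 to 63.4). IGF2BP2-alone sites exceeded complex-alone sites by 39.1 percentage points (SD 21.3, 11.7 to 57.0). For each difference the two-sided exact sign-flip test over 6 libraries gave p = 0.0312, the smallest it allows, and 0.0312 after adjustment over the 3. The classes were themselves chosen by recurrence. Shared sites needed 2 libraries of each side, IGF2BP2-alone sites 2 of 2, and complex-alone sites 2 of 4. Shared sites were also wider. Both favour the order found in any further library, and their part in it was not tested, so the p-values do not measure it. The libraries come in pairs of a protein, so they are fewer independent proteins than 6, and without the 2 bio2 libraries the exact p of each difference was 0.125, again the smallest possible.

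**Figure D5:**
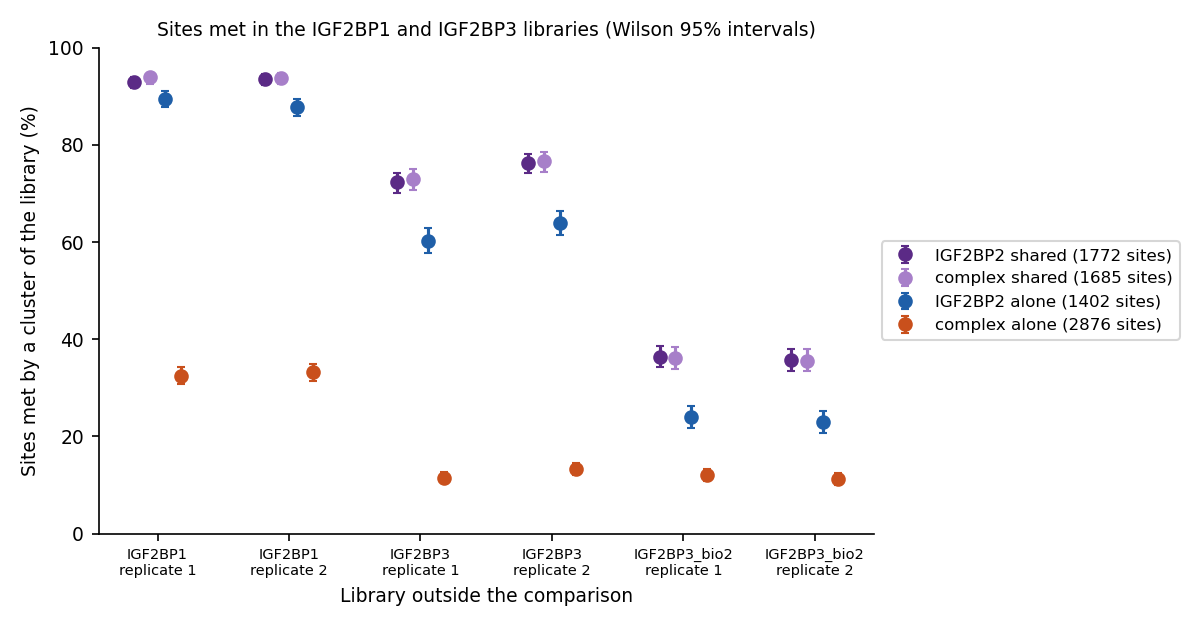
Points give the percentage of sites of each class (y axis) that overlapped a cluster of the library on the x axis, with Wilson 95% intervals. Complex-alone sites lie lowest in every library, at 11.2% to 33.2%, and shared sites of either side lie together at the top.

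The IGF2BP1 libraries held 14502 and 15701 clusters, the most of the 12, and levels are compared within a library only. Of the complex-alone sites, 1628 (56.6%) met no cluster in any of these 6 libraries, while 73 of the 1402 IGF2BP2-alone sites (5.21%) and 50 of the 1772 shared IGF2BP2 sites (2.82%) met none. At the other end, 491 shared IGF2BP2 sites (27.7%) and 72 complex-alone sites (2.5%) were met in all 6. In 3' UTR sites alone, shared sites exceeded IGF2BP2-alone sites by 6.16 percentage points and the exact p rose to 0.125, and in single-copy sites the excess was 3.29, so this smallest of the 3 differences depended on which sites were taken.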

How the data were processed

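The authors' PAR-CLIP reads were, per the study's methods, quality filtered, clipped and collapsed to distinct sequences with the FASTX toolkit, mapped with bowtie and called into clusters with PARalyzer. The mapping allowed up to 10 genomic matches per read. Tool versions and PARalyzer settings were not given in the sources used here, and the submitters' processing notes name Bowtie and hg38. The deposited files list 1 cluster interval per line with its strand, of another kind than a count, with no score or read number, so depth is unknown and the number of clusters, 4581 to 9765 in the 6 libraries compared, sets the precision. Wilson 95% intervals cover counting error only. Starts were read as counted from 1, since the base before the start was then G in most clusters, as RNase T1 leaves it.

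Clusters of a side were merged with 1 nt of overlap and kept in at least 2 libraries. Midpoints were annotated with GENCODE release 44 in the order coding sequence, 3' UTR, 5' UTR, other exon, intron, intergenic, with the stop codon counted in the 3' UTR. tRNA genes came from the RefSeq table, by position without strand. A cluster is single-copy when its central 20 nt occurred a single time in hg38 without alternate contigs. A site is single-copy when all its clusters are. Groups were compared with exact permutation tests over libraries, and site classes with exact sign-flip tests over the 6 libraries outside the comparison, in Python 3.11.15 with scipy 1.17.1. Plates were seeded for each replicate per the labels' protocol, which does not say whether they were processed on separate days, so the p-values measure only the spread between these libraries, which may be technical. The replicate numbers did not pair the samples, with correlations of replicate differences between -0.0206 and 0.00754.

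The named genes were the 6 per class with the most sites, ties by symbol. The members, gene lists and rules were chosen with earlier results of these data known. Merging, overlap and tests passed 8 of 8 checks on simulated data. RNA levels and m7G maps were not used here, and a few items covered by the rule for named genes are not reported here.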

Additional observations from a re-analysis of the deposited data

How the results depend on the processing

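Shares of sites and most counts of genes moved with the rule for a complex site, which gives fewer or more sites by construction. With complex sites in 3 or more of 4 libraries, 40.7% of IGF2BP2 sites and 59.2% of complex sites were shared, and 708 genes had IGF2BP2 alone, 126 the complex alone, 22 both at different sites and 440 both at the same site. With at least 1 METTL1 and 1 WDR4 library the shares were 49.3% and 45.7% and the classes held 566 IGF2BP2-alone, 306 complex-alone, 51 different-site and 553 same-site genes. With the METTL1 libraries alone they were 36.0% and 56.6%, with 732, 140, 27 and 411 genes for IGF2BP2 alone, complex alone, different sites and same site. With the WDR4 libraries alone they were 39.2% and 46.3%, with 702, 191, 43 and 425 genes. Sites in any 1 complex library gave 76.2% and 9.02%, centres at most 10 nt apart 43.6% and 30.3%, and clusters at or above the median width 58.5% and 39.5%. Single-copy clusters gave 47.0% and 33.0%, with 38 different-site and 411 same-site genes, and 9 tRNA sites in place of 18. Chromosomes 1 to 22, X and Y gave 51.9% for IGF2BP2 sites. Introns included gave 934 complex-alone and 135 different-site genes.

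Leaving out each library in turn gave 32.4% to 49.7% of IGF2BP2 sites shared and 40.5% to 49.3% of complex sites. It gave 558 to 589 IGF2BP2-alone, 269 to 331 complex-alone, 41 to 57 different-site and 527 to 559 same-site genes, over the 4 complex libraries. Without a library of the 6 outside the comparison, shared minus IGF2BP2-alone was 9.20 to 11.1 percentage points, shared minus complex-alone 46.4 to 54.3, and IGF2BP2-alone minus complex-alone 35.5 to 44.6, each with an exact p of 0.0625, the smallest that 5 libraries allow. Without the bio2 libraries these were 8.39, 61.7 and 52.8 (exact p = 0.125), and with 3' UTR sites alone the first was 6.16 (exact p = 0.125).

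Of the library differences, 152 of 156 values kept their direction. The coding difference turned to -6.33 among mRNA clusters alone, where the 3' UTR difference was 12 in place of 22.1. The other-contig difference, -0.197, ranged from -0.670 to 0.275 when each library was left out, above 0 without IGF2BP2 replicate 2 and, at 0.101, without METTL1 replicate 1. The difference in 3' UTR position, 0.00698, ranged from -0.00472, without IGF2BP2 replicate 2, to 0.0187. With the replicate number as a block the differences were unchanged by construction, and the smallest exact p was 0.111, as for the 3' UTR share at 22.1 percentage points. No call changed, since none could pass. Alternatives added after the data were seen were sites cut to their central 20 nt, which kept the 3 recurrence differences at 9.0, 47.8 and 39.3, and single-copy tRNA clusters.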
